A study of Mus musculus with 9 samples.

Results

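Chemokine and chemokine receptor genes were examined in primary murine microglia kept for 6 h in glioma-conditioned medium (GCM). The 38 genes comprised secreted chemokines of the CXC and CC families, their signalling receptors, and the atypical and chemerin receptors Ackr3, Ccrl2 and Cmklr1. Of these, 36 were measured among 17097 genes, each by the brightest probe set that carries its symbol alone, and Cxcl3 and Cxcr4 were not analysed here. The cells came from cortices of C57BL/6J mice at P0-P2 and were shaken off mixed glial cultures, and RNA was taken from 3 untreated cultures, 3 cultures in GCM from LN18 cells and 3 in GCM from U87-MG cells (U87 in the labels). LN18 and U87-MG are established human glioblastoma lines, so murine cells met factors of human origin, and each medium stands for 1 line. GCM had been conditioned in microglia culture medium, and the labels name no group given fresh medium without glioma factors. RNA of each culture went onto its own array (Affymetrix MG-430 PM strip, 1 colour), and the series' design text states that the 3 replicates came from separate cortical cultures.

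Chemokines are small secreted proteins that guide leukocytes along gradients through seven-transmembrane receptors coupled to inhibitory G proteins. CXC chemokines whose sequence opens with Glu-Leu-Arg (ELR) attract neutrophils, CXCL9, CXCL10 and CXCL11 are induced by interferons and attract T cells, and the inflammatory CC chemokines attract monocytes and other leukocytes. Cultured microglia are a known source of CCL2, CCL3 and CCL4, and many of these genes carry binding sites for the transcription factor NF-κB close to their start.

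The upstream sequences of the ELR chemokines Cxcl1, Cxcl2 and Cxcl3 and of Cxcl10 are shown because these 4 hold letters of the NF-κB motif and because Cxcl2 and Cxcl10 had widely spread values on the arrays. They are RefSeq sequences of GRCm38.p6, written 5′ to 3′ on the strand of the gene and ending at the base before its annotated start. Capitals mark the NF-κB motif GGANTTTCC on either strand, the motif GAAANNGAA of interferon-stimulated response elements (ISRE) in Cxcl10, and the TATA box TATAAA in Cxcl3.
Cxcl1, chr5:90891135-90891244, plus strand: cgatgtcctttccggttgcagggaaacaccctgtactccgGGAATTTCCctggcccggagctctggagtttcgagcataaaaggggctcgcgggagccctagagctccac
Cxcl2, chr5:90903789-90903898, plus strand: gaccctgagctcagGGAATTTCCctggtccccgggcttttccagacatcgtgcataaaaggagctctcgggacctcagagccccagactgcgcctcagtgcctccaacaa
Cxcl3, chr5:90785991-90786100, plus strand: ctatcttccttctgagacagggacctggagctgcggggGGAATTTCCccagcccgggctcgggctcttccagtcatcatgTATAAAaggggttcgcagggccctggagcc
Cxcl10, chr5:92348890-92349139, minus strand: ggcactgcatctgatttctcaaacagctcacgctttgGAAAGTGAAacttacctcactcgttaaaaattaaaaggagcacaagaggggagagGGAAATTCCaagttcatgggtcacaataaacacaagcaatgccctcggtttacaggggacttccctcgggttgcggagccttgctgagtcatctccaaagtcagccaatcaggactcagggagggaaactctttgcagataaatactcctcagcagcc
The NF-κB letters began 70 bases before the start of Cxcl1, 96 before that of Cxcl2, 72 before that of Cxcl3 and 158 before that of Cxcl10. The ISRE letters of Cxcl10 began 213 bases before its start. The same NF-κB 9-mer stands in Cxcl1, Cxcl2 and Cxcl3, which lie close together on chromosome 5. Cxcl10 and Ccr3 hold the same 9-mer read on the other strand. The motifs do not overlap in these 4 genes. RefSeq sequences of the 250 bases before the start were at hand for 29 of the 38 genes, and both strands were searched. Each of the 29 counted once as a gene if any of its promoters held the letters. The shares of all promoters count each promoter. The NF-κB letters occurred in 6 of the 29 (20.7%), namely Ccr3, Ccrl2, Cxcl1, Cxcl2, Cxcl3 and Cxcl10, and in 1.07% of 32851 promoters. The ISRE letters occurred in 6 of the 29, namely Ccl3, Ccl19, Ccr2, Cxcl9, Cxcl10 and Cxcl14, and in 7.13% of all promoters. TATAAA occurred in 9 of the 29 (31.0%) and in 12.4% of all promoters. Such matches are descriptions of letters, neighbouring genes share ancestry, and binding was not measured. By position, 11 of the 38 genes lie on chromosome 11 and 11 on chromosome 5.

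The deposited values are log2 signals. They ran from 1.56 to 12.88 over all probe sets, array medians lay between 3.39 and 3.41, and the median gene had a mean level of 4.34. Of the 36 genes, 17 lay above the median gene (mean levels 4.55 to 11.79) and 19 below it (2.01 to 4.27). The mean of each replicate number had been made equal before deposit for 100% of probe sets, within 1e-06. Arrays that share a replicate number are therefore not independent across groups, the SDs are those of adjusted values, and adjusted p-values below come from limma with a block term for the replicate number. The p without that block is added where it changes the call, and it counts degrees of freedom that the adjusted values no longer have. Levels of different genes are signals of different probe sets and are not set against each other. Bulk RNA cannot tell fewer cells of a type from less RNA per cell. Microglia markers were present, with 8 of 10 measured markers above the median gene. Of 46 measured markers of other cells (astrocytes, oligodendrocyte lineage, neurons, fibroblasts and mural cells, endothelium, border macrophages, neutrophils and lymphocytes), 6 lay above it. None of the 46 passed the test in either medium with the block, and without it only Mrc1 passed, lower in GCM LN18. In GCM LN18 and GCM U87-MG 1 and 5 of them had an unadjusted p under 0.05, against 12.2% and 9.12% of all genes. Pf4, also a border macrophage marker, is left out of these 46.

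In microglia exposed to GCM LN18, 2 of the 36 genes passed the test, both higher: Cxcl14 and Cmklr1. Over all genes 0.538% were called higher and 0.339% lower with the block. Without the block 8 passed, against 2.59% of all genes called higher and 2.64% lower: Cxcl14, Cxcl13, Cxcl16, Ccr3 and Cmklr1 higher, and Cxcl2, Ccl3 and Ccl4 lower. In GCM U87-MG, Cxcl14 alone passed with the block, where 0.0468% of all genes were called higher and 0% lower. Without it 3 passed, Cxcl14 and Cmklr1 higher and Ccl3 lower, against 0.807% of all genes higher and 0.708% lower. At an unadjusted p under 0.05 stood 11 of the 36 (30.6%) in GCM LN18, against 12.2% of all genes, and 12 of the 36 (33.3%) in GCM U87-MG, against 9.12%. Of these, 1 and 3 were among the 19 dim genes, and 10 and 9 among the 17 bright ones. The share among all bright genes was not counted, and the part of signal level in these counts was not tested. The 36 genes were chosen with earlier results of these data known, so these shares beside those of all genes are descriptive. The 2 comparisons share their untreated arrays. Direction was mixed, with 19 of 36 log2 fold changes above 0 for GCM LN18 and 17 for GCM U87-MG, and medians of 0.03 and -0.01 beside 0.00 for all genes in both (48.5% and 48.7% of all genes above 0).

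**Figure D1:**
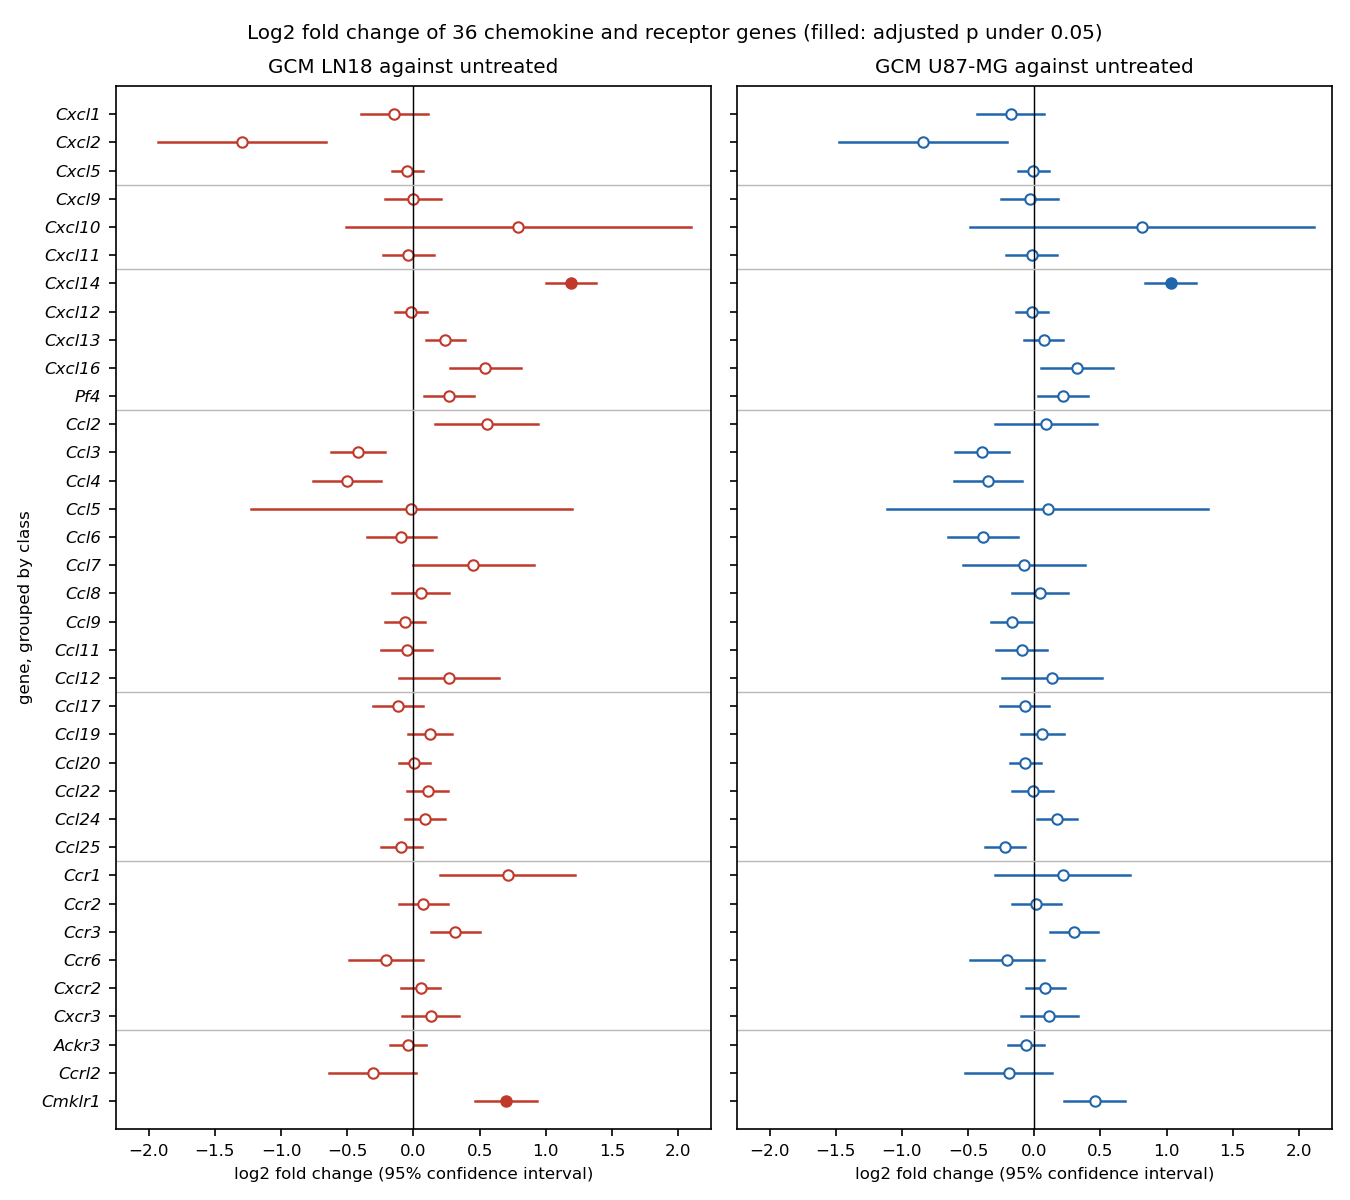
Log2 fold change against untreated microglia of the 36 measured genes in GCM LN18 (left) and GCM U87-MG (right), grouped by class, with 95% confidence intervals from the limma fit with the replicate block. Filled points passed an adjusted p of 0.05: Cxcl14 in both media and Cmklr1 in GCM LN18. Cxcl10 and Ccl5 have the widest intervals.

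Cxcl14, a CXC chemokine of epithelial and neural tissue whose receptor is not settled, rose in both media. Its log2 signal was 8.57, 8.50 and 8.41 in untreated replicates 1 to 3, 9.65, 9.78 and 9.63 in GCM LN18, and 9.48, 9.43 and 9.66 in GCM U87-MG. All 6 GCM arrays lay above all 3 untreated ones. Here and below, the share of all genes with groups separated in this way was not counted. The means were 8.50 ± 0.08, 9.69 ± 0.08 and 9.53 ± 0.12 (SD, n = 3 each). This gave a log2 fold change of 1.19 in GCM LN18 (95% interval 1.001 to 1.383, 2.28-fold, adjusted p = 0.0044). It was 1.03 in GCM U87-MG (0.84 to 1.22, 2.04-fold, adjusted p = 0.0126). A second probe set of Cxcl14 gave 1.27 and 1.06. The call in GCM U87-MG was lost when the untreated arrays were fitted with GCM U87-MG alone (adjusted p = 0.122), without untreated replicate 2 (0.0581), and without GCM U87-MG replicate 1 (0.122) or 3 (0.0860). In GCM LN18 Cxcl14 passed under all 16 alternatives, with a highest adjusted p of 0.0485.

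Among the other CXC chemokines outside the ELR and interferon groups, none passed with the block. Cxcl16, a membrane-bound ligand of CXCR6 that also takes up oxidized lipoprotein, had a log2 signal of 9.09, 8.93 and 8.68 in untreated microglia, 9.31, 9.49 and 9.52 in GCM LN18, and 9.16, 9.15 and 9.36 in GCM U87-MG. Its lowest GCM array lay above its highest untreated one. It differed by 0.54 ± 0.12 (SE) in GCM LN18 (adjusted p = 0.0858, 0.0209 without the block) and 0.32 in GCM U87-MG (0.470). The adjusted p in GCM LN18 fell below 0.05 with array weights (0.0326) and without untreated replicate 1 (0.0437). It was 0.378 without GCM LN18 replicate 2, and the log2 fold change was 0.38 without untreated replicate 3. Pf4, the gene of platelet factor 4, differed by 0.27 (0.218) and 0.22 (0.477), with untreated arrays at 8.90 to 9.06 and GCM arrays at 9.11 to 9.35.

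Cxcl13, the B-cell chemokine that binds CXCR5, was a weak signal with a small difference. It stood at 4.41, 4.40 and 4.54 in untreated microglia, at 4.72, 4.72 and 4.63 in GCM LN18, and at 4.53, 4.54 and 4.50 in GCM U87-MG. The GCM LN18 arrays lay above all others, while GCM U87-MG overlapped the untreated range. In log2 units the difference was 0.24 ± 0.06 (SE) in GCM LN18 (adjusted p = 0.151, 0.0247 without the block) and 0.07 in GCM U87-MG (0.790). Cxcl12, the ligand of CXCR4 and ACKR3, was dim (mean level 2.86) and differed by -0.02 in both media.

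**Figure D2:**
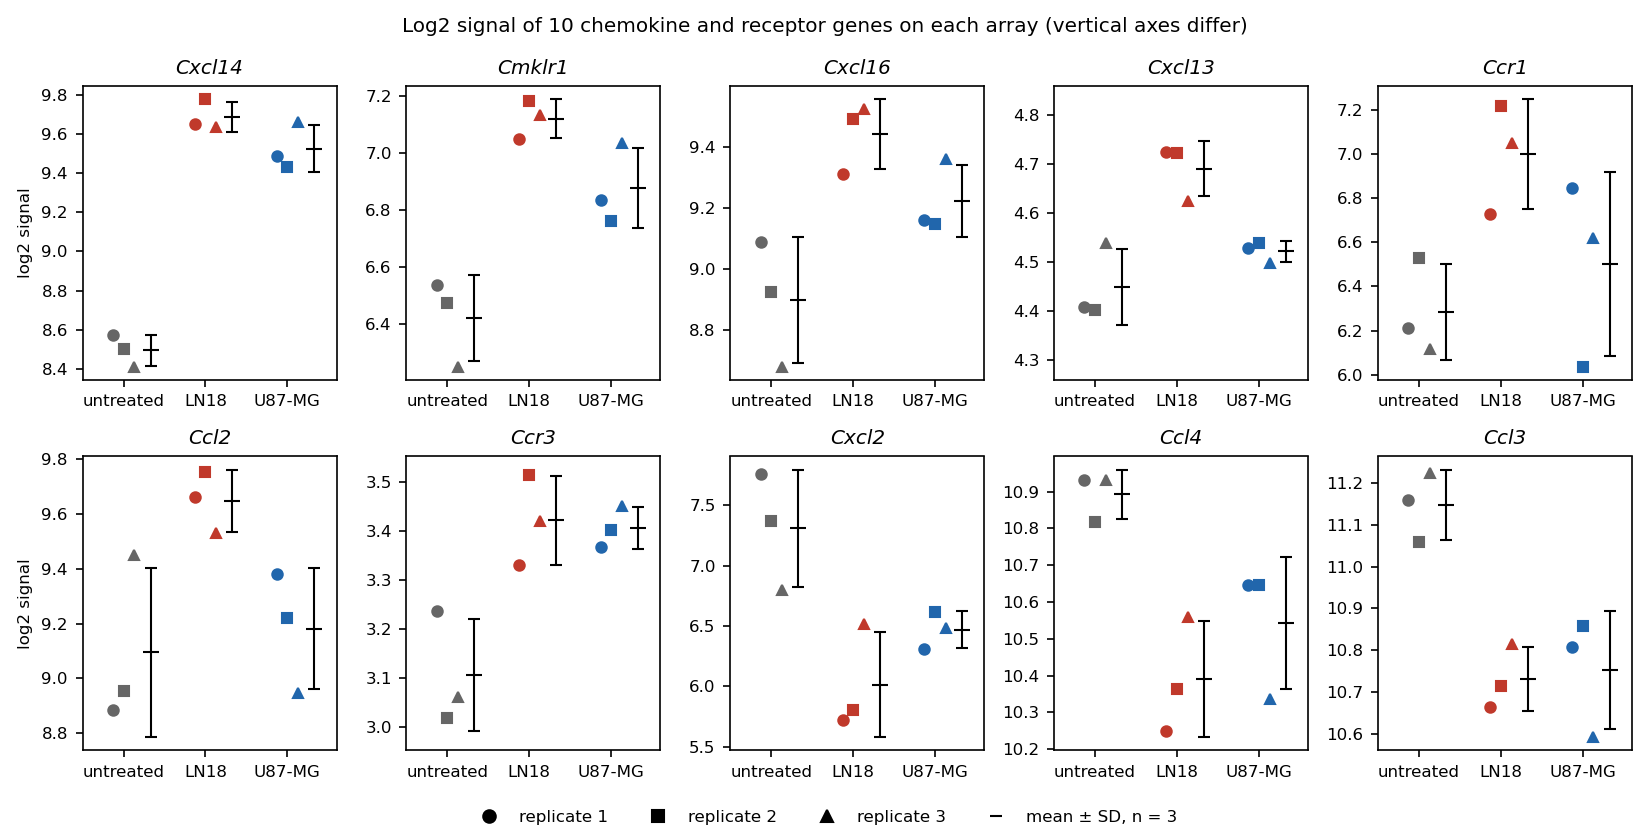
Log2 signal of 10 chemokine and receptor genes on each of the 9 arrays, with the group mean ± SD (n = 3); vertical axes differ between panels and do not start at 0. For Cxcl14, Cmklr1, Cxcl16 and Ccr3 every GCM array lies above the untreated arrays. For Cxcl2, Ccl3 and Ccl4 every GCM array lies below them, and Cxcl13, Ccr1 and Ccl2 overlap in GCM U87-MG. The share of all genes separated in this way was not counted.

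All 3 measured ELR chemokines had log2 fold changes below 0 in both media, and none passed with the block. Cxcl2, a ligand of the neutrophil receptor CXCR2, had the largest differences of the 3. Its log2 signal was 7.76, 7.37 and 6.80 in untreated microglia, 5.72, 5.81 and 6.51 in GCM LN18, and 6.31, 6.61 and 6.48 in GCM U87-MG. All GCM arrays lay below the untreated ones, with wide spread inside the untreated group. The fold change on the log2 scale was -1.30 ± 0.28 (SE) in GCM LN18, 2.45-fold lower (adjusted p = 0.0825, 0.0233 without the block), and -0.84 in GCM U87-MG (0.420, 0.146 without the block). Without untreated replicate 3 it was -1.68 in GCM LN18 with an adjusted p of 0.0344. Without untreated replicate 1 it was -0.96 (0.163), and that in GCM U87-MG was -0.50 (0.650). Without GCM LN18 replicate 2 the adjusted p of Cxcl2 in GCM LN18 was 0.377. Cxcl1, which has the same NF-κB 9-mer upstream, was dim (mean level 2.89) and differed by -0.15 and -0.18. Cxcl5 was also dim (2.34) and differed by -0.05 and -0.01.

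Cxcl10, a CXCR3 ligand induced by interferons, varied widely among the untreated arrays and did not pass the test. Cxcl10 is given in full here, as are Ccl5 and Ccl7 below, after their values were seen. Its log2 signal was 6.40, 4.90 and 4.29 in untreated replicates 1 to 3, 5.37, 6.42 and 6.18 in GCM LN18, and 5.43, 5.88 and 6.73 in GCM U87-MG. Untreated replicate 1 stood above the other untreated arrays, which lay below all GCM arrays. Because each replicate number was given the same mean, a high value on 1 array lowers the others of that number. Whether untreated replicate 1 was high or the GCM arrays of replicate 1 were low cannot be told from these values. On average Cxcl10 differed by 0.79 in GCM LN18 (95% interval -0.51 to 2.10, adjusted p = 0.652) and 0.81 in GCM U87-MG (0.719). The size rested on the untreated array left out: it was 1.70 (adjusted p = 0.0476) and 1.72 (0.138) without untreated replicate 1, 0.57 and 0.59 without replicate 2, and 0.11 and 0.13 without replicate 3. Ccl5, a CC chemokine also known as RANTES, had 7.85, 6.01 and 6.21 in untreated microglia, 6.313, 6.718 and 7.001 in GCM LN18, and 6.00, 7.43 and 6.95 in GCM U87-MG. Untreated replicate 1 of Ccl5 held the highest of the 9 adjusted values, with the same limit. The log2 fold change was -0.02 and 0.10 (adjusted p = 0.995 and 0.974), and its sign turned with the untreated array left out. It was 0.86 (0.149) and 0.97 (0.235) without untreated replicate 1, -0.52 and -0.41 without replicate 2, and -0.38 and -0.26 without replicate 3.

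For 12 measured interferon response genes the same array held the highest adjusted median, with the limit given for Cxcl10. Their median log2 level was 7.21, 5.80 and 5.68 in untreated microglia, 6.03, 6.92 and 6.94 in GCM LN18, and 6.06, 6.52 and 6.95 in GCM U87-MG. None of the 12 passed the limma test in either medium, with or without the block. In GCM LN18 and GCM U87-MG 1 and 0 of them had an unadjusted p under 0.05, against 12.2% and 9.12% of all genes. The part of this interferon gene pattern in the values of Cxcl10 and Ccl5 was not tested. Cxcl9 and Cxcl11, the other CXCR3 ligands, were dim (mean levels 2.71 and 2.98) and differed by no more than 0.04 in size in either medium.

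**Figure D3:**
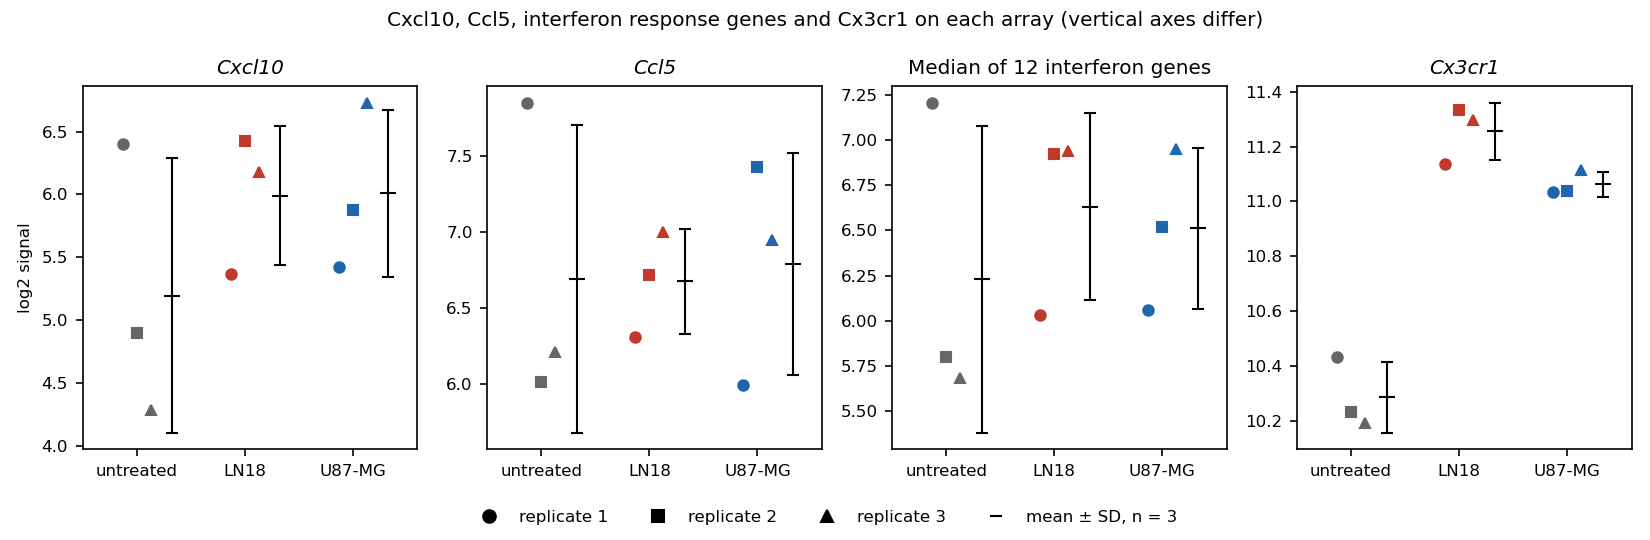
Log2 signal of Cxcl10 and Ccl5, the median of 12 interferon response genes, and Cx3cr1 on each of the 9 arrays, with the group mean ± SD (n = 3); vertical axes differ between panels and do not start at 0. In these values, whose replicate means were made equal, untreated replicate 1 stands above the other untreated arrays for Cxcl10, Ccl5 and the interferon genes. Cx3cr1 separates all GCM arrays from all untreated ones.

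Of the 10 inflammatory CC chemokines, none passed with the block in either medium, and 4 had log2 fold changes above 0 and 6 below 0 in each. Ccl3 and Ccl4, neighbouring genes for the macrophage inflammatory proteins MIP-1α and MIP-1β, were lower on every GCM array. Ccl3 had a log2 signal of 11.16, 11.06 and 11.23 in untreated microglia, 10.66, 10.72 and 10.81 in GCM LN18, and 10.81, 10.86 and 10.59 in GCM U87-MG. The log2 fold change of Ccl3 was -0.42 ± 0.09 (SE) in GCM LN18 (adjusted p = 0.0825, 0.0163 without the block) and -0.40 in GCM U87-MG (0.220, 0.0451 without the block). Its adjusted p in GCM LN18 was below 0.05 with trend and robust estimation (0.0363) and without GCM U87-MG replicate 3 (0.0474). Over all alternatives it reached 0.365. Ccl4 had 10.93, 10.82 and 10.93 in untreated microglia, 10.25, 10.36 and 10.56 in GCM LN18, and 10.65, 10.65 and 10.34 in GCM U87-MG. For both genes the GCM arrays were separated from the untreated ones by less than 1 log2 unit. The log2 fold change of Ccl4 was -0.50 ± 0.11 (SE) in GCM LN18 (0.0926, 0.0233 without the block, 0.0477 without GCM U87-MG replicate 3) and -0.35 in GCM U87-MG (0.414). Without GCM LN18 replicate 2 the adjusted p of Ccl4 in GCM LN18 was 0.384.

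Ccl2, the main ligand of the monocyte receptor CCR2, stood at 8.88, 8.95 and 9.45 in untreated microglia, at 9.66, 9.75 and 9.53 in GCM LN18, and at 9.38, 9.22 and 8.95 in GCM U87-MG. The GCM LN18 arrays lay above all untreated arrays, and the GCM U87-MG arrays lay inside the untreated range. The log2 fold change was 0.55 ± 0.17 (SE) in GCM LN18 (adjusted p = 0.214) and 0.09 in GCM U87-MG (0.913). Without untreated replicate 3 it was 0.82 in GCM LN18 with an adjusted p of 0.0293. Over all alternatives the lowest log2 fold change of Ccl2 there was 0.39 and the highest adjusted p was 0.596. Ccl7 and Ccl12, further CCR2 ligands, had log2 fold changes of 0.45 (0.420) and 0.27 (0.583) in GCM LN18, and of -0.08 and 0.13 in GCM U87-MG. Ccl7 had 5.94, 5.61 and 6.01 in untreated microglia, 5.99, 6.72 and 6.21 in GCM LN18, and 6.00, 5.61 and 5.72 in GCM U87-MG, and the 3 groups overlapped. Without GCM LN18 replicate 2, the highest array of both genes, the differences in GCM LN18 were 0.14 for Ccl7 and 0.05 for Ccl12. Leaving out other single arrays took them to at most 0.69 and 0.41.

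Ccl6 and Ccl9, bright CC chemokines of rodent myeloid cells, had log2 fold changes of -0.09 and -0.06 in GCM LN18. All GCM U87-MG arrays of Ccl6 (9.55 to 9.87) lay below the untreated arrays (9.97 to 10.27), with a log2 fold change of -0.39 (adjusted p = 0.375). Ccl9 had 11.65 to 11.73 in GCM U87-MG and 11.78 to 11.93 in untreated microglia, a log2 fold change of -0.17 (0.504). Ccl8 and Ccl11 were dim and differed by less than 0.1 in size. The 6 other CC chemokines, namely Ccl17 and Ccl22 (CCR4 ligands), Ccl19 (CCR7), Ccl20 (CCR6), Ccl24 (CCR3) and Ccl25 (CCR9), all lay below the median gene. Their log2 fold changes ran from -0.12 to 0.13 in GCM LN18 and from -0.22 to 0.17 in GCM U87-MG, and none passed with or without the block.

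Cmklr1, the receptor for the chemoattractant chemerin, rose in GCM LN18. Its log2 signal was 6.54, 6.48 and 6.25 in untreated microglia, 7.05, 7.18 and 7.13 in GCM LN18, and 6.83, 6.76 and 7.03 in GCM U87-MG. All GCM arrays lay above the untreated ones, and every GCM LN18 array lay above every GCM U87-MG array. The log2 fold change was 0.70 ± 0.10 (SE) in GCM LN18 (1.62-fold, adjusted p = 0.0281) and 0.46 in GCM U87-MG (0.212, 0.0459 without the block). A second, dim probe set gave 0.19 and 0.15. The call in GCM LN18 was lost without untreated replicate 2 (0.0543) or 3 (0.0523), without GCM LN18 replicate 1 (0.104), 2 (0.210) or 3 (0.136), and without GCM U87-MG replicate 1 (0.0620). Ccrl2, which binds chemerin without signalling, differed by -0.31 (0.450) and -0.19 (0.738), and the scavenger receptor Ackr3 was dim (2.30) and differed by -0.04 and -0.06.

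Of the 6 measured chemokine receptors proper, none passed with the block. Ccr1, a receptor for CCL3 and CCL5, had a log2 signal of 6.21, 6.53 and 6.12 in untreated microglia, 6.73, 7.22 and 7.05 in GCM LN18, and 6.85, 6.04 and 6.62 in GCM U87-MG. The GCM LN18 arrays lay above the untreated ones and the GCM U87-MG arrays overlapped them. The log2 fold change was 0.71 ± 0.22 (SE) in GCM LN18 (adjusted p = 0.223) and 0.22 in GCM U87-MG (0.825). The adjusted p in GCM LN18 was 0.0488 when it was fitted with the untreated arrays alone and 0.0312 without GCM U87-MG replicate 2. Over all alternatives the highest adjusted p of Ccr1 there was 0.638 and the lowest log2 fold change was 0.55. Ccr3, the eotaxin receptor, was dim, at 3.24, 3.02 and 3.06 in untreated microglia, 3.33, 3.51 and 3.42 in GCM LN18, and 3.37, 3.40 and 3.45 in GCM U87-MG. Every GCM array of Ccr3 lay above the untreated ones. Its log2 fold change was 0.32 ± 0.08 (SE) in GCM LN18 (0.133, 0.0278 without the block, 0.0479 without untreated replicate 1) and 0.30 in GCM U87-MG (0.313). Over the alternatives the adjusted p of Ccr3 in GCM LN18 reached 0.493, and the lowest log2 fold change was 0.25. Ccr2, Ccr6, Cxcr2 and Cxcr3, the receptors for CCL2, CCL20, the ELR chemokines and the interferon-inducible CXC chemokines, all lay below the median gene. Their log2 fold changes ran from -0.21 to 0.13 in GCM LN18 and from -0.21 to 0.11 in GCM U87-MG. Dimmer probe sets of Ccr2 gave 0.04, 0.14 and 0.09 in GCM LN18, and 0.19, 0.23 and 0.12 in GCM U87-MG.

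No gene of the 36 differed between the media by the adjusted test, with or without the block, where 0% and 0.00585% of all 17097 genes were called. At an unadjusted p under 0.05 stood 5 of the 36 (13.9%), against 5.06% of all genes: Cxcl13, Ccl2, Ccl6, Ccl7 and Cmklr1, each higher in GCM LN18. The difference of Ccl2 was 0.47 (95% interval 0.08 to 0.85), that of Ccl7 was 0.53 (0.07 to 0.99), that of Ccl6 was 0.30 (0.03 to 0.56), that of Cmklr1 was 0.24 (0.01 to 0.47) and that of Cxcl13 was 0.17 (0.02 to 0.32), each with an adjusted p of 0.926. Of these 5 genes, the arrays of the 2 media were separated for Ccl2, Ccl6, Cxcl13 and Cmklr1, and overlapped for Ccl7. They were also separated for the dim genes Ccl20, Ccl22 and Ccl25, higher in GCM LN18, and Cxcl5, lower in it. The share of all genes separated in this way was not counted. For Cxcl14 the media differed by 0.16 (interval -0.03 to 0.35).

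Few of the remaining genes of the system passed the test. The exception in both media was Cx3cr1, the receptor for fractalkine and a defining gene of microglia. Cx3cr1 had 10.43, 10.23 and 10.19 in untreated microglia, 11.14, 11.33 and 11.30 in GCM LN18, and 11.03, 11.04 and 11.11 in GCM U87-MG. All GCM arrays lay above all untreated ones. It rose by 0.97 ± 0.09 (SE) in GCM LN18 (adjusted p = 0.00827) and by 0.78 in GCM U87-MG (0.0499), the one call among 12 measured further receptors in each medium. The call in GCM U87-MG lay just under the threshold. Apart from the fit without the block, the alternatives were examined for the 36 genes only, not for Cx3cr1. The ligand gene Cx3cl1 was one of 10 measured further chemokines, none of which passed with the block. Without the block Cklf was lower in GCM LN18. Of 23 genes for receptor signalling (among them G protein subunits, kinases and arrestins), none passed with the block in either medium. In GCM LN18 and GCM U87-MG 6 and 4 of them had an unadjusted p under 0.05, against 12.2% and 9.12% of all genes. Without the block Plcb3 was higher and Arrb1 lower in both media, Gng2 and Pik3r5 were lower in GCM LN18, and Rac2 was lower in GCM U87-MG.

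Likewise none of 8 RGS genes, whose products switch off G protein signals, passed in either medium with or without the block. In GCM LN18 and GCM U87-MG 1 and 0 of these RGS genes had an unadjusted p under 0.05, against 12.2% and 9.12% of all genes. None of 9 genes for enzymes that trim chemokines passed (2 and 2 at an unadjusted p under 0.05). Of 14 NF-κB feedback and cytokine genes none passed (2 and 2), and their median log2 fold changes were -0.14 and -0.08. Among the 10 measured microglia markers, Tmem119 and Cx3cr1 rose in GCM LN18 and Cx3cr1 in GCM U87-MG. Of the 10, 7 and 5 had an unadjusted p under 0.05, against the same shares of all genes. Without the block Aif1, Fcrls and Gpr34 were also called higher in GCM LN18, and Fcrls in GCM U87-MG. The summed level of these markers, in log2 units, was 12.38 to 12.51 in untreated microglia, 12.83 to 12.87 in GCM LN18 and 12.76 to 12.88 in GCM U87-MG. This sum was thus higher on every GCM array, as were the signals of Cxcl14 and Cmklr1, and its part in those differences was not tested. It adds unlogged signals, so bright markers weigh most, and Cx3cr1 is among the markers summed. The median marker level was 8.63, 8.24 and 8.67 in untreated microglia and 8.77, 8.82 and 8.87 in GCM LN18. In GCM U87-MG it was 8.75, 9.09 and 8.61, which overlapped the untreated range. The summed level of 6 endothelial markers was 7.22 to 7.46, 7.48 to 7.65 and 7.42 to 7.79 in the 3 groups, none of them passed, and the part of this shift in the chemokine values was not tested.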

How the data were processed

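RNA of murine microglia was profiled on 9 arrays, 3 each for untreated cells, GCM LN18 and GCM U87-MG, grouped by their sample labels. The authors deposited log2 signals of 45141 probe sets, normalized before deposit. The submitters' notes name limma, and the methods name RMA in their section on public data sets. Whether RMA also made these values is not stated. The 104 control probe sets, 551 with several symbols and 15588 unnamed here were left out. Of 28898 with 1 symbol, 28689 were matched to a current symbol, and the brightest stood for each of 17097 genes.

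Models with all 3 groups used lmFit and eBayes of limma 3.58.1 (R 4.3.3). A gene passed at an adjusted p under 0.05 (Benjamini-Hochberg over all genes). The replicate number was a block, because each number has the same mean for every probe set within 1e-06, which leaves 4 residual degrees of freedom, not 6. The labels do not say that a number marks 1 culture across groups. Arrays have no read depth, and their number limits the precision. The fit was tested on simulated data.

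Values on every array are given for members called with or without the block in any comparison, or with a log2 fold change of at least 0.5 in size and the same sign in all 3 replicate numbers. From the other gene lists, genes called with the block are named. Members and lists were chosen with earlier results of these data known. Alternatives were no block, eBayes with trend and robust settings, leaving out dim genes, the mean of a gene's probe sets, only the groups compared, quantile normalization, array weights, and each array left out in turn.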

Additional observations from a re-analysis of the deposited data

How the results depend on the processing

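The pairing of replicate numbers rests on the equal means in the deposited values, not on the labels. Without the replicate block, 8 chemokine and receptor genes passed in GCM LN18 in place of 2, 3 in GCM U87-MG in place of 1, and 0 between the media in both fits. When only the groups compared were fitted, 0 passed in GCM U87-MG. Leaving out each array in turn gave 1 to 5 in GCM LN18 and 0 to 1 in GCM U87-MG. The share of all genes called was counted only with and without the block, so these counts stand without it. The 5 stood without untreated replicate 1, and 4 passed without GCM U87-MG replicate 3. The 1 in GCM LN18 stood without untreated replicate 2, any GCM LN18 replicate or GCM U87-MG replicate 1. The 0 in GCM U87-MG stood without untreated replicate 2 or GCM U87-MG replicate 1 or 3. Leaving out an array leaves fewer residual degrees of freedom, and the cause of the other shifts was not tested. Between the media 0 passed under all 16 alternatives. Of 1671 gene values under them, 10 lost a call, 19 gained one, and no called value changed sign, while 92 values without a call did. The number of arrays, 3 a group, limits the precision, and how detection depends on signal over background was not tested.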
